A study of Arabidopsis thaliana with 23 samples.

Results

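The SAUR family (small auxin up RNA genes) was examined for the H3K27me3 mark and for binding of the demethylase REF6 in unopened flowers of Arabidopsis thaliana. Members were the protein-coding genes whose symbol or listed synonym in the gene table was SAUR followed by a number, which gave 80 of 27444 coding genes on the 5 nuclear chromosomes. The name was the symbol of 16 members and a synonym of the other 64. The symbol SAUR21 stood at AT5G01830, a gene of 2865 bp, and was also a name of AT5G18030, which lies beside SAUR20. AT5G18030 is called SAUR21 here, and AT5G01830 is kept as a member under its locus name. Whether AT5G01830 is a SAUR gene is doubtful from its length and the shared name, and the counts of members bound by REF6-GFP are also given without it. AT1G29510 carried the symbol SAUR68, which AT1G29490 also had, and is called by its other name, SAUR67.

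All plants were of the Col0 background, 5 weeks old, and grown in long days at 22 °C by day and 20 °C by night without treatment. REF6-GFP was precipitated through its GFP tag from ref6-3 plants, in 3 samples without and 3 samples with DSG, a reagent that crosslinks proteins to each other. A second construct titled REF6-ZnF-GFP, whose abbreviation the labels do not spell out, was profiled with DSG in 3 samples titled ref6 and in 2 samples of the triple mutant elf6-3ref6Cjmj13G, where the REF6 promoter drove it. The genotype entry of the ref6 samples names REF6-GFP instead, so their construct is given as titled. H3K27me3 was profiled in 2 wild-type and 2 triple mutant samples. The 6 lists were each called once on pooled samples. Values below therefore carry no replicate error, differences between lists could not be checked against replicates, and no test was made. Read depth is unknown from these lists. Whole flowers hold many cell types, so a change in the share of cells that carry a mark cannot be told apart from a change within a cell type. Expression was not measured, and the floral organ genes AG, AP1, AP3, PI and SEP3 were each covered by H3K27me3 over at least 93.7% of the body in both genotypes.

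SAUR genes encode short proteins and are among the genes that respond earliest to auxin. The best studied of them, in Arabidopsis, bind and inhibit type 2C phosphatases of clade D, which otherwise inactivate the proton pumps of the plasma membrane, and active pumps acidify the cell wall and let cells expand. H3K27me3 is the mark of Polycomb silencing, and REF6, ELF6 and JMJ13 are Jumonji demethylases that remove it. Many SAUR genes lie side by side in tandem arrays of similar copies, where short reads can match several places, and the sources used here do not give how such reads were placed.

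SAUR genes were split between marked and unmarked states, and more of them carried H3K27me3 in the triple mutant than in the wild type. Marked means that at least 50% of the gene body lay under domains. In the wild type 31 of the 80 members were marked, against 23.7% of all coding genes, and in the triple mutant 42 were, against 30.9%. Gained means coverage under 10% (unmarked) in wild-type plants that reached 50% or more in the mutant, and 10 members were gained, against 6.29% of all coding genes. No member met the reverse rule for a lost gene, which 0.565% of all coding genes met. Of the others, 29 were marked in both genotypes (22.1% of all coding genes), 32 were unmarked in both (60.5%) and 9 were intermediate (10.6%). In the wild type 46 members were unmarked, against 70.9%. Median coverage over the members was 0% in wild-type plants and 59.8% in the mutant, and over all coding genes it was 0% in both. Because most genes were covered either fully or not at all, the means show the difference better, 36.3% and 49.6% over the members and 23.1% and 29.9% over all coding genes.

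Gene length bears on these shares. SAUR bodies had a median length of 815 bp, against 2078 bp over all coding genes. Among the 4347 coding genes of 582 to 1207 bp, which hold 64 of the members, 43.7% were marked in wild-type plants and 51.1% in the mutant. The corresponding shares of the 64 members were 37.5% and 51.6%. So the family's share of marked genes lay above that of all coding genes and near or below that of genes of its own length. For gained genes the shares were 12.5% of the 64 members, which is 8 genes, and 8.19% of the genes in this range. Lost genes made up 1.52% of this range and 0 of the 64 members, and intermediate genes 8.33% and 7 of the 64. For REF6-GFP the contrast was wider in this range, where 32.8% of members and 19.0% of genes were bound.

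**Figure D1:**
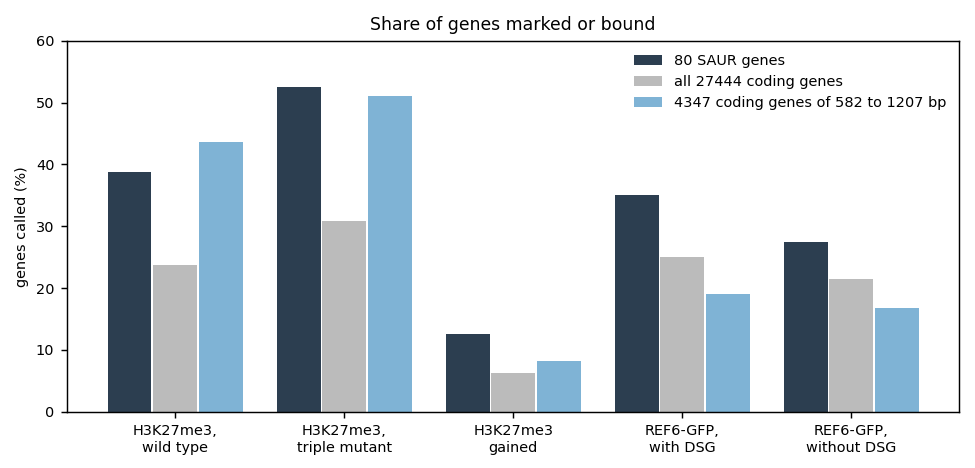
Share of genes (%, bars from 0) marked by H3K27me3 in the wild type and triple mutant, gained in the triple mutant, and bound by REF6-GFP with and without DSG, for the 80 SAUR genes, all 27444 coding genes and the 4347 coding genes of 582 to 1207 bp. The SAUR bar is above that of all coding genes in each group, and above that of genes of similar length by the most for the bound shares. For the marked shares it is below it in the wild type and near it in the triple mutant.

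The 10 gained members were SAUR13, SAUR20, SAUR21, SAUR26, SAUR29, SAUR30, SAUR37, SAUR41, SAUR47 and SAUR70. All but SAUR70 had no wild-type coverage at all. SAUR13, SAUR20, SAUR30 and SAUR47 were covered over 100% of the body in the triple mutant. SAUR70 went from 1.69% to 98.4%, SAUR26 from 0 to 92.4% and SAUR41 from 0 to 85.3%. Coverage in the triple mutant was 74.7% for SAUR37, 66.7% for SAUR29 and 56.9% for SAUR21, from 0 in each. Of the 10, 7 lay under triple mutant domains that touched no wild-type domain, and 3 (SAUR30, SAUR47 and SAUR70) lay under domains that did. The same split over all gained coding genes was not computed, so these counts have no background beside them.

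The domains behind these calls differed in strength. Fold enrichment and −log10 q of a domain or peak are the authors' own values and are used here to describe and rank within a list. SAUR70 lay under the domain with the highest fold, 2.95, and a −log10 q of 75.6. It was 5888 bp wide, at chromosome 5, 7043792 to 7049679 (TAIR10). In the wild type the domain there spanned 7045796 to 7049955, with a fold of 3.11 and a −log10 q of 85.0. It covered the neighbouring SAUR76 completely, so the triple mutant domain reached further over SAUR70. Such values are of the whole domain and do not describe the newly covered part alone, at SAUR70 or at SAUR30 and SAUR47. SAUR30 (fold 2.57), SAUR13 (fold 2.44), SAUR20 and SAUR21 (1 shared domain, fold 2.36) and SAUR47 (fold 2.23) followed, with −log10 q from 20.6 to 32.7. SAUR41, a gene that promotes cell expansion in the hypocotyl, lay under a domain of fold 1.95 and −log10 q 12.8 that held no other coding gene. Weaker were the domains at SAUR37 (fold 1.48, −log10 q 4.52), SAUR29 (1.44 and 2.80) and SAUR26 (1.27 and 0.936), and the q of the last was above 0.05. Requiring a −log10 q of at least 10 of the triple mutant domains alone ended these 3 calls and left the other 7. With the same limit in both lists 11 members were gained. SAUR33, SAUR40, SAUR54 and SAUR74 then joined the 7, as their wild-type domains fell below the limit.

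Coverage differed in both directions in the intermediate members. It was higher in the triple mutant in 7 of the 9, against 73.5% of all intermediate genes, and lower in 2. SAUR34 went from 0 to 48.2%, SAUR57 from 0 to 44.7%, SAUR19 from 0 to 41.1% and SAUR51 from 0 to 33.6%. SAUR54 went from 25.7% to 62.9%, SAUR52 from 40.6% to 74.3%, and SAUR49, known for a role in leaf senescence, from 45.1% to 60.9%. These values show which members stand close to the 50% limit, SAUR34 just below it in the triple mutant and SAUR21 (56.9%) just above. The wild-type coverage of SAUR54 came from 1 domain of 213 bp with a fold of 1.19 and a −log10 q of 0.420, a q above 0.05. With a q of at most 0.05 required of the domains, SAUR54 was gained. The 2 members with lower coverage were SAUR43, from 93.8% to 46.9%, and SAUR8, from 53.7% to 20.0%. Over all members, 19 were higher by over 10 points in the triple mutant (15.7% of all coding genes) and 3 were lower (4.92%), the last being SAUR36, which went from 100% to 86.6%.

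The 29 members marked in both genotypes included 16 that were at 100% in both. Among the 29 were SAUR10, which promotes stem growth, SAUR36, which promotes leaf senescence, SAUR32, SAUR71, SAUR76 and the array of SAUR1 to SAUR5 with SAUR50. Among these 29, the highest domain folds in the wild type were at SAUR39 (4.73, −log10 q 116), SAUR55 (4.38 and 103), SAUR77 (4.04 and 95.4) and SAUR18 (3.96 and 102). The lowest of the 29 were at SAUR33 (1.23, −log10 q 0.731, a q above 0.05) and SAUR40 (1.58 and 6.12). Both of these had higher coverage in the triple mutant, SAUR33 from 61.6% to 83.9% and SAUR40 from 64.5% to 84.2%. The 31 wild-type domains that touched a SAUR body had a median fold of 2.92 and a median width of 2387 bp, against 2.16 and 1724 bp over the whole list of 7914 domains. The 43 triple mutant domains at SAUR bodies lay closer to their list, with medians of 2.38 and 1784 bp against 2.20 and 1590 bp. The whole lists were not limited to domains that touch a gene, so these differences were not shown to be particular to SAUR genes.

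The 32 members unmarked in both genotypes lay at varied distances from domains. The nearest wild-type domain was 368 to 26193 bp from the body, with a median of 4625 bp. For the nearest triple mutant domain the range was 0 to 26369 bp, with a median of 3194.5 bp. SAUR69 was the 1 member of this group touched by a domain, with 7.63% coverage in the triple mutant. The group held all 9 genes of the SAUR63 subfamily, which promote elongation of floral organs and hypocotyls, as well as SAUR14, SAUR15, SAUR22 to SAUR24, SAUR27, SAUR28, SAUR59 and SAUR72.

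**Figure D2:**
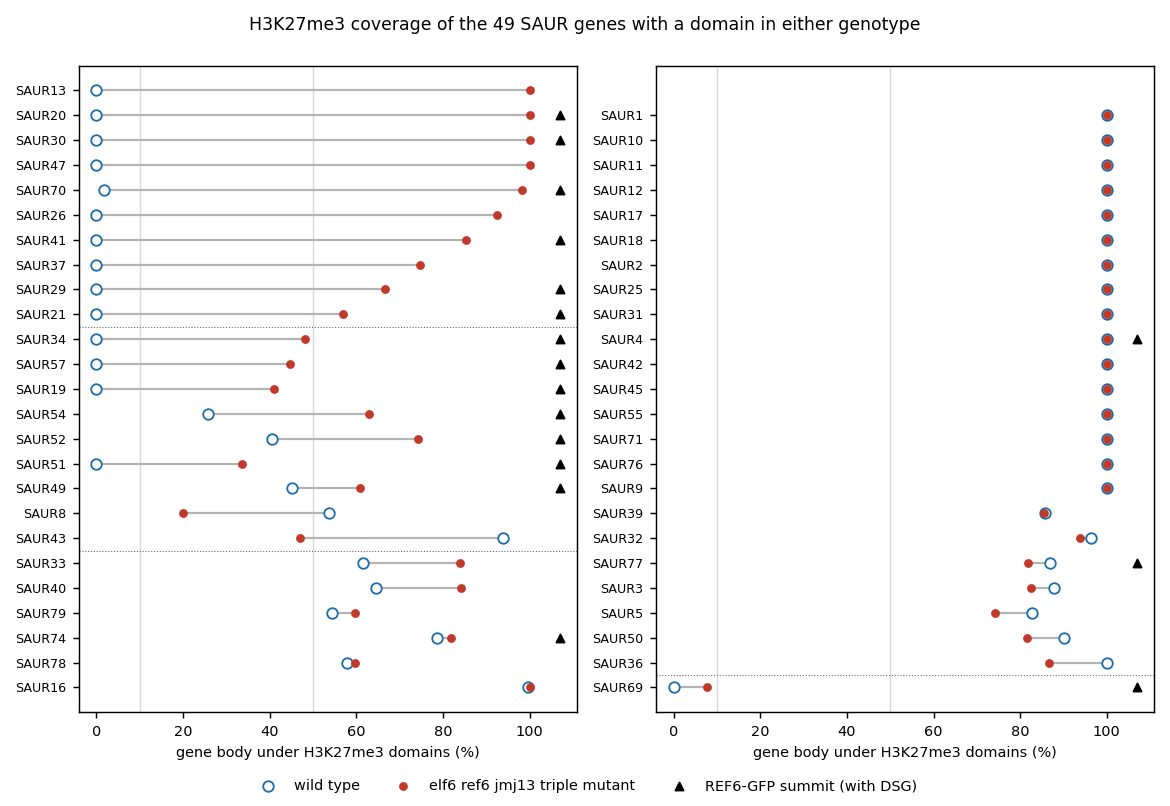
Share of the gene body under H3K27me3 domains (%) in the wild type (open circles) and the triple mutant (filled circles) for the 49 SAUR genes with a domain in either genotype, with triangles at genes that had a REF6-GFP summit with DSG. Dotted lines separate gained, intermediate, marked and unmarked genes, grey lines mark 10% and 50%, and the long bars of the 10 gained genes stand against the paired points of the genes marked in both. The other 31 members had no domain and are not drawn.

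REF6-GFP was found at a larger share of SAUR genes than of coding genes as a whole. Bound means that the gene body or the 1 kb on either side held a summit. With DSG 28 of the 80 members were bound, against 25.1% of all coding genes, and without DSG 22 were, against 21.4%. All 22 were among the 28, so they made up 78.6% of the members bound with DSG, against 81.7% of all genes bound with it, and 100% of those bound without it, against 95.9%. Without AT5G01830 the counts were 27 and 21. A summit with DSG lay inside the body of 19 members, against 16.2% of all coding genes and 9.89% of those in the length range. The 28 bound members rested on 27 peaks, since some members had more than 1 and 2 peaks served several members. SAUR6 was the bound member with the farthest summit, at 981 bp, and SAUR25 the nearest member outside the window, at 1087 bp.

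The strongest REF6-GFP peak of the family was at SAUR59, with a fold of 19.2 with DSG and 14.2 without it (chromosome 3, 22434766 to 22435914 with DSG). It ranked 110 of 5393 peaks with DSG and 424 of 4526 without. SAUR59 had no H3K27me3 in either genotype, and its summit was 3113 bp from the nearest triple mutant domain. SAUR41 followed with folds of 14.5 and 12.8 (chromosome 1, 5643986 to 5645430), and its summit lay inside the domain found in the triple mutant. SAUR48 had folds of 12.7 and 11.6 from a summit 655 bp outside its body, and SAUR6 had 11.9 and 11.0. SAUR34 had 10.2 and 6.92. Folds at the other bound members ran from 2.69 to 8.61 with DSG, and 19 of the 28 were above the median of the whole list, 4.37.

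Lists made from different libraries do not set folds on 1 scale. The listed fold was larger with DSG in 71.8% of all genes bound in both lists and in 20 of the 22 such members, the exceptions being SAUR20 (4.38 with DSG and 4.89 without) and SAUR69 (3.05 and 3.44). The 6 members bound with DSG alone were SAUR4, SAUR21, SAUR49, SAUR54, SAUR65 and SAUR77, and their folds of 2.69 to 3.41 were all below the median of the list with DSG.

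**Figure D3:**
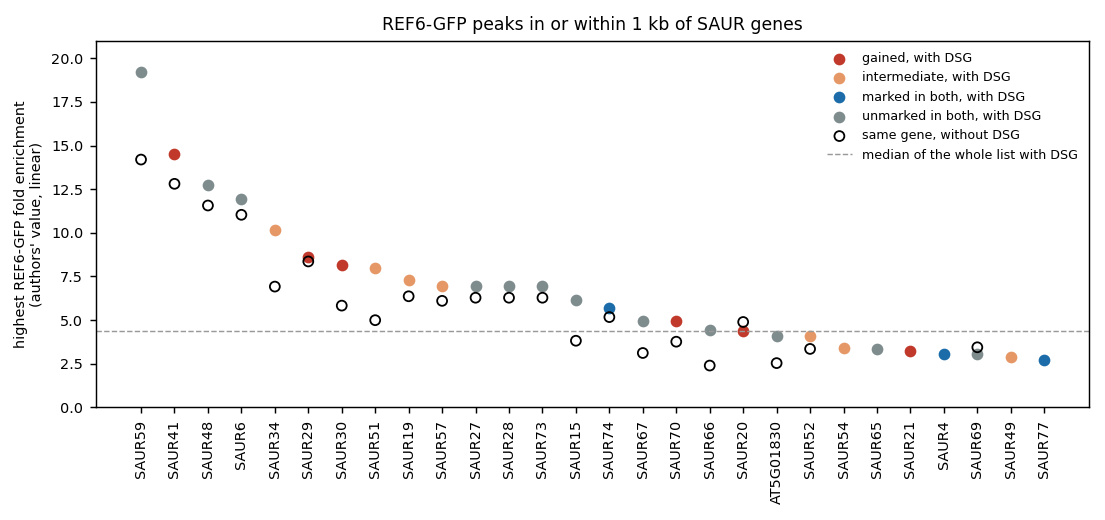
Highest REF6-GFP fold enrichment (authors' linear value) at each of the 28 SAUR genes bound with DSG (filled, coloured by H3K27me3 class) and at the same genes without DSG (open circles), ordered by the value with DSG. SAUR59 stands highest at 19.2, the dashed line is the median of the whole list with DSG (4.37), and genes without an open circle had no summit without DSG.

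Binding differed between the H3K27me3 classes of the members. REF6-GFP with DSG was found at 6 of the 10 gained members (68.9% of all gained genes), 7 of the 9 intermediate members (39.9% of all intermediate genes), 12 of the 32 unmarked in both (22.2%) and 3 of the 29 marked in both (14.0%). In the 6 gained and bound members, SAUR20, SAUR21, SAUR29, SAUR30, SAUR41 and SAUR70, a summit lay inside the gene body, and 4.34% of all coding genes and 5.24% of those in the length range were gained and bound. The 7 bound intermediate members were the same 7 whose coverage was higher in the triple mutant, while SAUR8 and SAUR43, whose coverage was lower, had no summit. Over the 19 members with coverage higher by over 10 points, 13 were bound, against 59.6% of all genes with such a change, and of the 58 members within 10 points 15 were, against 19.5%. None of the 3 members with lower coverage was bound, against 4.74%.

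REF6-GFP summits at SAUR genes lay in and out of domains in shares near those of the whole list. Of the 27 summits with DSG, 2 lay in a wild-type domain (7.34% of all 5393 summits), at SAUR74 (fold 5.67) and SAUR4 (fold 3.08). A domain of the triple mutant alone held 12 of them (36.3% of all), and 13 lay in neither (56.3%). Of these 27 summits, 19 lay in a SAUR body, 2 lay in the body of another coding gene (PAL2 beside SAUR57, and AT1G17350 beside SAUR77), and 6 lay in no coding gene.

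The 4 gained members without a summit were SAUR13, SAUR26, SAUR37 and SAUR47. The nearest REF6-GFP summit with DSG was 1395 bp from SAUR13, 1767 bp from SAUR26, 1801 bp from SAUR47 and 7648 bp from SAUR37. The triple mutant domains over SAUR13 and SAUR47 each held 1 such summit, beyond the 1 kb window of the gene, whereas those over SAUR26 and SAUR37 held none. Of the members unmarked in the wild type, 6 of the 22 bound ones were gained, against 21.6% of all such genes, and 4 of the 24 unbound ones were, against 3.85%. This split depends on the window. With summits within 2 kb SAUR13, SAUR26 and SAUR47 counted as bound, and 9 members were gained and bound. The body of SAUR13 overlapped that of the coding gene AT4G38820 by 433 bp.

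Tandem arrays held 36 of the 80 members in 11 runs, where a run joins neighbouring members with at most 1 other coding gene between them. In the arrays 9 of 36 members were marked in the wild type (25.0%). The share was 23.7% of all coding genes and 43.7% of those in the length range. Of these 9 members, 6 lay in the run of SAUR49, SAUR50 and SAUR1 to SAUR5. REF6-GFP with DSG was at 17 of the 36 (47.2%), against 25.1% of all coding genes and 19.0% of those in the length range. Outside the arrays 22 of 44 members were marked in the wild type. In the triple mutant 16 of the 36 and 26 of the 44 were marked. Shares in that genotype were 30.9% of all coding genes and 51.1% of those in the length range. Outside the arrays the 11 members bound by REF6-GFP with DSG made up 25.0%, near the share of all coding genes and above that of the length range. The members compared here were not limited to that range. Members of an array share domains and summits, so they are not independent of each other.

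The SAUR63 subfamily array on chromosome 1 carried no H3K27me3 over SAUR61 to SAUR65, or over SAUR68, SAUR66 and SAUR67 farther along, in either genotype, and SAUR75 on chromosome 5, of the same subfamily, had none. REF6-GFP summits with DSG lay in SAUR65 (fold 3.35), SAUR66 (4.41) and SAUR67 (4.96), and those in SAUR66 and SAUR67 were also found without DSG, at 2.40 and 3.12. The nearest triple mutant domain was 9024, 4578 and 6102 bp from these summits.

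The SAUR19 subfamily on chromosome 5, whose members promote cell expansion, was unmarked in the wild type at all 6 genes and differed within itself in the triple mutant. A domain of 5683 bp (5963146 to 5968828, fold 2.36) ran from inside SAUR19 through SAUR20 into SAUR21, covering 41.1%, 100% and 56.9% of their bodies. It touched no wild-type domain and held 3 REF6-GFP summits with DSG. A further summit, with a fold of 7.29 with DSG and 6.37 without, lay 964 bp outside SAUR19. SAUR22, SAUR23 and SAUR24, farther along, had neither H3K27me3 in either genotype nor a summit within 1 kb. At SAUR24 the nearest REF6-GFP summits were just outside that window, at 1119 bp with DSG (fold 6.79) and 1115 bp without (4.58). SAUR24 counted as bound in both REF6-GFP lists with a window of 2 kb, or with any base of the peak in place of the summit.

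In the SAUR26 subfamily on chromosome 3, a group known for growth responses to temperature, SAUR29 and SAUR26 at the ends were gained while SAUR28, SAUR27 and SAUR73 between them stayed at 0 in both genotypes. REF6-GFP summits lay in SAUR29 (fold 8.61 with DSG and 8.36 without) and in SAUR27 (6.94 and 6.28), and the summit in SAUR27 was also within 1 kb of SAUR28 and SAUR73. The triple mutant domain over SAUR29, at 976863 to 977369, was 507 bp wide and held the summit there. The gained calls of SAUR29 and SAUR26 were the weakest of the 10 and were each kept under 4 of 9 alternative settings, so the contrast within the subfamily rests on them.

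The run of SAUR49, SAUR50 and SAUR1 to SAUR5 on chromosome 4 was the largest, with 7 members, and carried the mark over most of its span. Domains covered 81.5% of its span in wild-type plants and 66.5% in the mutant. At the gene level 6 of the 7 were marked in wild-type plants and 7 in the mutant, SAUR49 being the difference. Summits with DSG lay in SAUR49 (fold 2.90) and SAUR4 (3.08), and none was found without DSG.

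Elsewhere marked and unmarked neighbours stood side by side. SAUR12 was covered over 100% in both genotypes, while SAUR6 and SAUR7, whose bodies overlap each other, were at 0. The domain over SAUR12 ended 1998 bp from SAUR6 in wild-type plants and 468 bp from it in the mutant. The REF6-GFP summit with a fold of 11.9 lay inside the triple mutant domain and 1017 bp outside the wild-type one. SAUR16 was marked in both genotypes (99.6% and 100%), while SAUR14 and SAUR15, a gene of the earliest auxin response, were at 0. A summit with a fold of 6.16 with DSG and 3.82 without lay 885 bp outside SAUR15. In the SAUR41 subfamily, SAUR41 was gained, SAUR40 and SAUR71 were marked in both genotypes and SAUR72 in neither. SAUR76, SAUR77 and SAUR78, a further related group, were marked in both, SAUR78 at 57.8% and 59.8%. SAUR53, in a run with SAUR54, had no domain and no REF6-GFP summit within 1 kb.

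**Figure D4:**
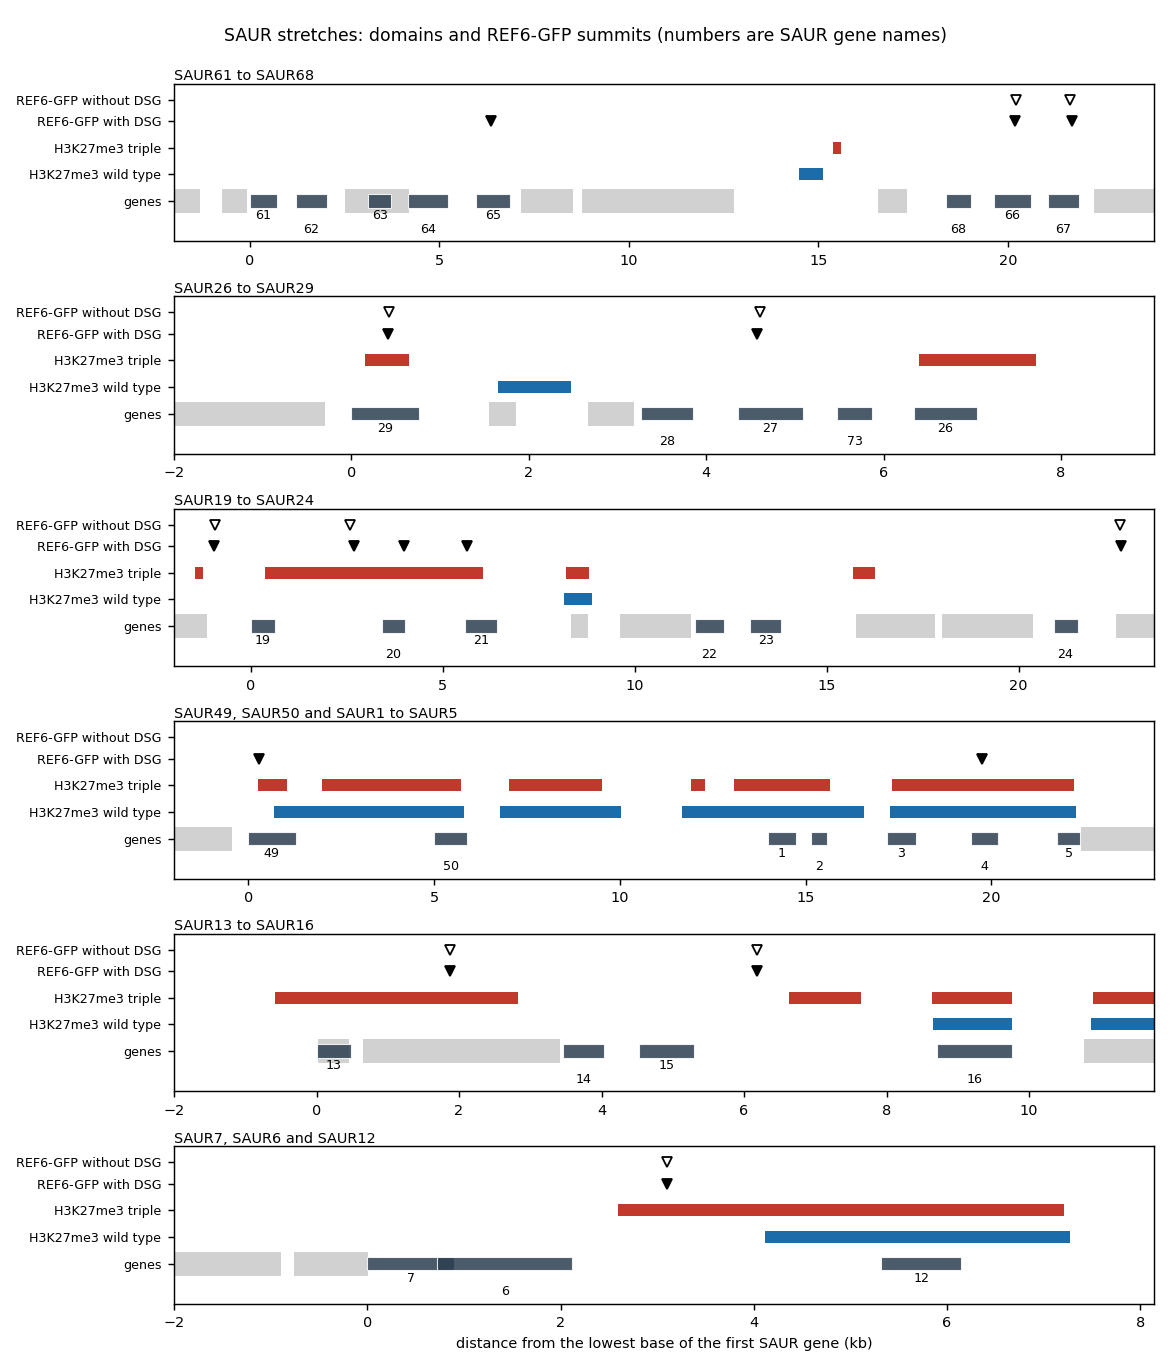
Maps of 6 stretches of SAUR genes, with distance from the lowest base of the first SAUR gene in kb on each axis. Dark boxes are SAUR genes with their numbers, pale boxes other coding genes, bars the H3K27me3 domains of the wild type and triple mutant, and triangles REF6-GFP summits (filled with DSG, open without). The map of SAUR19 to SAUR24 shows the domain over SAUR19 to SAUR21 in the triple mutant alone, and that of SAUR49 to SAUR5 shows domains in both genotypes.

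REF6-ZnF-GFP gave other sets of bound members. In ref6 no member had a summit, against 1.08% of all coding genes and 0.920% of those in the length range. In the triple mutant 32 members did, against 35.1%, and in the length range 42.2% of the 64 members did, against 28.3%. However, this list held 8634 of its 9327 peaks on chromosomes 1 to 3. On those chromosomes 30 of 46 members were bound, against 51.9% of coding genes, and on chromosomes 4 and 5 it was 2 of 34, SAUR34 and SAUR44, against 8.08%. REF6-GFP with DSG was at 17 of the 46 (24.6% of coding genes there) and 11 of the 34 (25.8%). The highest folds were at SAUR74 (7.25) and SAUR29 (6.08), both also bound by REF6-GFP, and the median over the bound members was 3.22. All of SAUR61 to SAUR65 had a REF6-ZnF summit in or near the body, with folds of 2.57 to 3.27, where REF6-GFP with DSG was found at SAUR65. In all, 16 members were bound by both, which is 57.1% of the members bound by REF6-GFP with DSG, against 49.5% of all genes bound by it, and 16 of the 32 bound by REF6-ZnF-GFP, against 35.4%. With a −log10 q of at least 10 the REF6-ZnF count was 14, against the 32 given above. Peaks of the whole list reached down to a −log10 q of 4.69. The share of all coding genes at this limit was not computed, so the fall is not shown to be particular to SAUR genes.

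Other genes of auxin-driven growth were taken in 5 lists of 41 genes: the phosphatases and proton pumps downstream of SAUR proteins, auxin receptors, activators of SAUR genes, and the GH3 genes. Of the 41, 4 were marked in the wild type, against 23.7% of all coding genes, and all 4 were GH3 genes. There were 2 gained genes (6.29% of all coding genes), 0 lost ones (0.565%) and 13 bound by REF6-GFP with DSG (25.1%), so the gained count lay near its background. Of the 9 clade D phosphatases, the direct targets of SAUR19, none was marked in the wild type and none gained. AT5G66080 (APD9) went from 0 to 45.8% with REF6-GFP folds of 14.5 with DSG and 13.96 without, and AT5G06750 (APD8) from 0 to 37.7% with 9.75 and 11.7. AT4G33920 (APD5) was bound with DSG alone (2.39). Of 11 plasma membrane proton pump genes none was marked or gained. HA3 had folds of 18.2 and 20.5 and went from 0 to 31.2%, HA2 had 7.37 and 6.48 with 5.19% coverage in the triple mutant, and HA7 had 2.595 with DSG.

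The regulators upstream and the GH3 genes differed from each other. None of the 6 auxin receptor genes carried the mark, and GRH1, also called AFB1, was bound (folds 5.89 and 5.28). Among 9 activators of SAUR genes PIF4, a transcription factor of growth in warmth and shade, was gained, from 0 to 60.3%, with folds of 7.61 and 6.85. PIL6, also called PIF5, reached 12.5% with folds of 4.81 and 3.99. ARF19 (4.43 and 3.64) and PIF3 (2.64 with DSG) were bound and unmarked. Of 6 genes of the GH3 family, which encode enzymes that conjugate auxin to amino acids, 4 were marked in the wild type, and DFL1 was gained, from 0 to 90.6%, with folds of 3.898 and 3.25. WES1 went from 0 to 41.9%, with folds of 9.18 and 8.79.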

How the data were processed

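Per the submitters' processing notes, the tools were MACS2 2.1.0, Picard 2.60, Bowtie 1.1.2 and deepTools and the build TAIR10, with no settings. The deposited lists (4 of REF6 peaks, 2 of H3K27me3 domains) carry no header line, so the MACS2 column layout was assumed. Fold is the authors' linear ratio to a control not given in the sources used here, and the −log10 q values are as deposited by the authors. The deposited score was not used. Genes were named and placed with a RefSeq table of TAIR10.1, so printed coordinates are those of the deposited lists. It holds no product names, strand, exons or sequences, so members were taken by symbol and synonym, and the planned promoter motifs and protein identities were not run. Coverage and distances were computed with Python 3.11.15, pandas 2.3.3 and numpy 2.4.6, and were tested on simulated data. Summits were assigned within 1 kb of a body.

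The lists cover 15 of the 23 samples, in 6 groups. The other 8 samples were not analysed here. No test was run. The members, lists and alternatives were chosen with earlier results of these data known. Genes named are all gained or lost members, all members bound by REF6-GFP, those of the subfamilies and arrays, range ends, and gained or bound pathway genes. Others are named after their values were seen.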

Additional observations from a re-analysis of the deposited data

How the results depend on the processing

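No paired analysis was possible because the lists are calls on pooled samples, and leaving out a replicate was not possible for the same reason. Of 80 values recomputed under alternatives, 64 stayed within 1.5 times the reported count. Shares of all coding genes were not recomputed under the alternatives, so the counts below do not compare the family with its background. With members taken by table symbol alone the counts were 2 marked in the wild type, 5 marked in the triple mutant, 3 gained, 8 bound by REF6-GFP with DSG and 8 without, 2 gained and bound, 6 bound by REF6-ZnF-GFP and 7 in arrays, since 16 members carry such a symbol. With coverage taken over the body and 1 kb on both sides, 4 members were gained and 2 gained and bound, and the cause was not tested. With 30% coverage counted as marked, 14 were gained and 10 were gained and bound. With the summit in the body alone, REF6-GFP without DSG was at 13 members and REF6-ZnF-GFP at 21, and within 500 bp REF6-GFP without DSG was at 13. At a −log10 q of at least 10 for peaks, REF6-ZnF-GFP was at 14. With that limit in the triple mutant domains alone, an alternative added after the data were seen, 3 members were lost (SAUR8, SAUR17 and SAUR43), as against 0 reported. A limit on that list alone can only lower its coverage, so it could add lost calls but not end any. The strongest wild-type domains at these 3 were also below the limit (−log10 q 4.05, 9.25 and 4.02). With the limit in both lists 0 members were lost. Of the 10 gained calls, SAUR13, SAUR20 and SAUR47 were kept under all 9 alternatives on coverage and membership other than symbol alone. Among the 9, the 30% limit, the removal of AT5G01830 and a q limit on wild-type domains alone could not end a gained call.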
